A study of Mus musculus with 8 samples.

Results

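Plau, Plaur, Serpinb2, Thbs1, F3, F10, F13a1 and Tgm2 encode proteins of pericellular proteolysis, blood clotting and matrix cross-linking, and they are 8 of the 18194 genes measured here. They were taken as a named group, and every probe set annotated to a group member alone was read, which gave 17 of 34958 such probe sets. A probe set is a group of short array probes for 1 transcript. A further probe set annotated to Thbs1 together with another gene was left out. Values are log2 expression values, and log2 5 is taken as background, so a pool mean under 5 is given as measured but enters a fold only as 5.

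Urokinase, the product of Plau, cuts plasminogen into plasmin, which dissolves fibrin and loosens matrix; its receptor, encoded by Plaur, holds it at the cell surface, and the serpin encoded by Serpinb2 inhibits it. Clotting starts when tissue factor, encoded by F3, binds factor VII and activates factor X, encoded by F10, which in turn generates thrombin. Thrombin makes fibrin, and factor XIII, whose catalytic chain is encoded by F13a1, cross-links it. Tgm2 encodes tissue transglutaminase, a related cross-linking enzyme, and Thbs1 encodes thrombospondin 1, a matrix glycoprotein that binds cell receptors and can activate latent transforming growth factor beta. Monocytes and macrophages are known to make many of these proteins, and platelets carry thrombospondin 1 and factor XIII.

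RNA came from sorted CD11b+Gr-1+ cells, named for 2 surface proteins of granulocytes and monocytes, and was hybridised to 8 single-colour Affymetrix arrays, 2 for each of 4 groups. All mice were C57BL/6J and carried HDC-EGFP, a reporter transgene for Hdc, the gene of the histamine-making enzyme histidine decarboxylase; the groups called wild-type carried HDC-EGFP alone and the groups called HDC-KO were HDC-EGFP/HDC-KO. Marrow cells were HDC-expressing cells from the femur and tibia of 3 mice per genotype aged 3 to 4 months. Tumor cells were pooled from 10 to 12 colon tumors of 5 mice per genotype aged 7 months. These mice received 1 dose of azoxymethane, a carcinogen, then dextran sodium sulfate, which injures the colon, for 10 days, and tumors were taken 22 to 24 weeks later. The labels name no EGFP gate for the tumor cells. Tumor and marrow therefore also differ in age, carcinogen treatment and gate, which cannot be told apart here from the tissue. The 2 arrays of a group are technical replicates of what is treated here as 1 pool, so a p-value here sets a difference between pools against technical spread alone, and mice are not the replicates.

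Hdc itself was 10.2-fold lower in the HDC-KO marrow pool than in the wild-type one, but only 1.16-fold lower in the tumor pool labelled HDC-KO than in the wild-type tumor pool. The label of that tumor pool was therefore not borne out by its target gene, and it is called the pool labelled HDC-KO throughout. By a second Hdc probe set the fall was 24.3-fold in marrow and 1.15-fold in tumor. In HDC-KO marrow Hdc still had a mean of 9.83 by the first probe set and 7.47 by the second, above log2 5. Within pools, technical arrays correlated at 0.995 to 0.998 across the 8174 genes tested. The pools also stood apart from each other at genes outside the group. Genes with a mean 16-fold or more away from those of the remaining pools, at a floor of log2 5, numbered 46 for the pool labelled HDC-KO, 6 for wild-type marrow, 1 for HDC-KO marrow and 1 for wild-type tumor. The 10 neutrophil markers measured were above log2 5 in all 4 pools. All 12 fibroblast and endothelial markers were under it in all 4.

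Between the marrow pools the group split. Tgm2 fell 12.9-fold and Thbs1 3.08-fold in HDC-KO marrow, while Plau rose 3.32-fold, and the other 5 genes did not pass. A gene passed at a limma Benjamini-Hochberg adjusted p under 0.05 together with at least a 2-fold difference. That made 3 of 8 genes, where 3.82% of all 8174 genes tested passed, 1.80% upward and 2.02% downward. The median log2 difference of the 8 was -0.34 and that of all genes tested 0.00.

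From marrow to tumor most of the group was higher. In wild-type mice Serpinb2, F3, Tgm2, Plau, F13a1 and F10 rose, 6 of 8 genes, where 16.4% of all genes passed, 11.6% upward and 4.81% downward. The HDC-KO comparison sets the tumor pool labelled HDC-KO against HDC-KO marrow. Changes from marrow to tumor given below as in HDC-KO are of this comparison. In it Tgm2, Serpinb2, F3, F10 and F13a1 rose and Plau fell, 6 of 8 genes again, where 36.5% of all genes passed, 21.1% upward and 15.4% downward. The median log2 difference of the 8 was 1.95 in wild-type and 1.71 in HDC-KO, beside -0.03 and -0.02 over all genes tested. F3 and Serpinb2 entered the tests only through the tumor arrays, being under log2 5 on all 4 marrow arrays, so a rise was built into their being tested. Fewer cells of a type and less RNA per cell cannot be told apart in such pools.

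Between the tumor pools Plau was the 1 gene of 8 that passed, 4.00-fold lower in the pool labelled HDC-KO, where 26.0% of all genes passed, 15.5% upward and 10.5% downward. The other 7 lay between -0.53 and 0.87 on the log2 scale, with F10 the highest and Serpinb2 the lowest. The difference of the genotype effects, tumor minus marrow, passed for 5 of 8 genes (Tgm2, Thbs1 and F10 upward, Plau and Serpinb2 downward), where 28.5% of all genes passed, 16.8% upward and 11.7% downward. These comparisons share pools, so their values are set side by side and not as independent results.

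**Figure D1:**
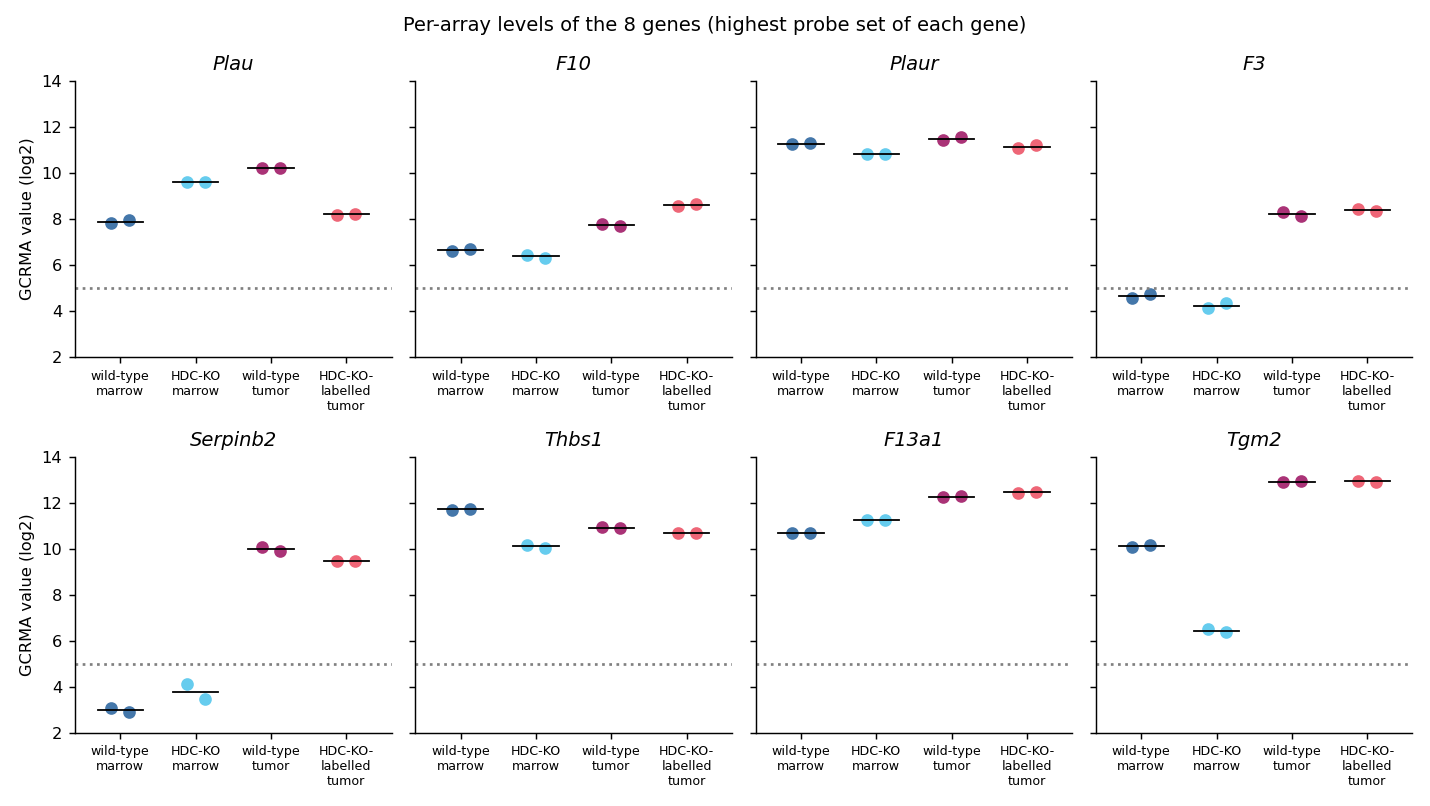
Log2 GCRMA value (vertical axis) of the probe set with the highest mean of each of the 8 genes in the 4 pools, with 2 technical arrays per pool as points, the pool mean as a bar and log2 5 as a dotted line. F3 and Serpinb2 lay under the dotted line in marrow and above it in tumor, Tgm2 was lowest in HDC-KO marrow, and Plau was highest in wild-type tumor.

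**Figure D2:**
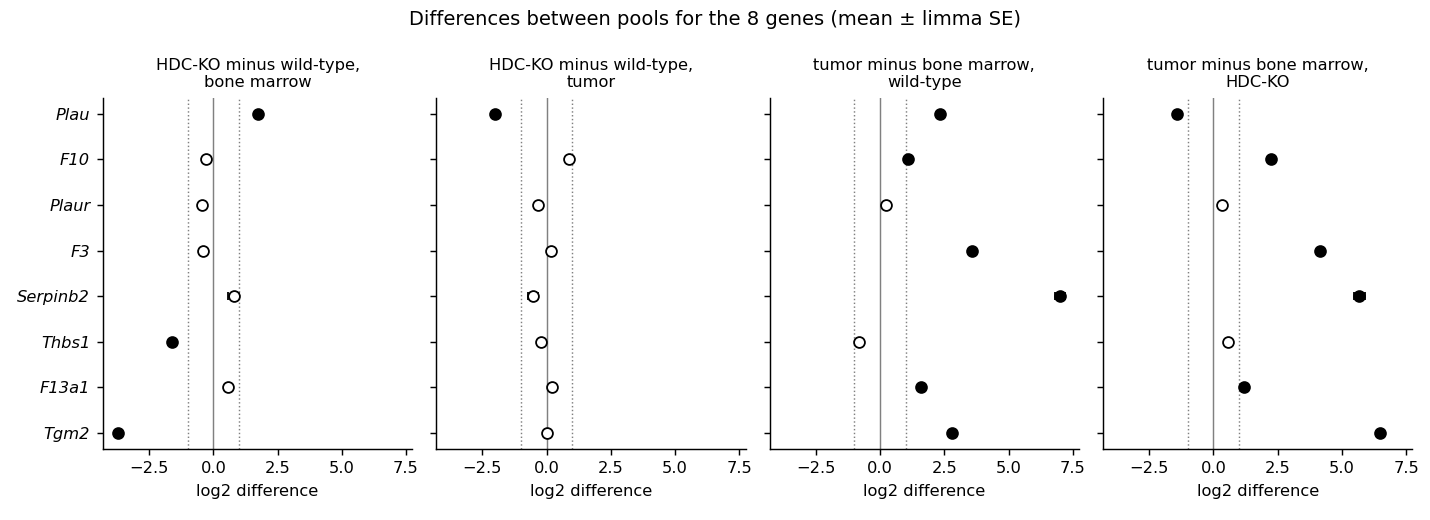
Log2 difference between pools (horizontal axis) for the 8 genes in 4 comparisons, with limma standard errors as bars that are mostly shorter than the points. Filled points passed the test, open points did not, and dotted lines mark a 2-fold difference; Plau is filled on opposite sides of 0 in marrow and in tumor.

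Plau, the urokinase gene and the secreted protease that starts plasmin formation, followed a course of its own among the 8. In wild-type marrow its 2 arrays read 7.82 and 7.95, and in HDC-KO marrow 9.61 and 9.63. In wild-type tumor they read 10.20 and 10.22, and in the pool labelled HDC-KO 8.19 and 8.23. No arrays of different pools overlapped, and the order was wild-type marrow, the tumor pool labelled HDC-KO, HDC-KO marrow and wild-type tumor from low to high. The genotype difference was 1.73 ± 0.06 in marrow (log2, limma SE, n = 2 technical arrays per pool, adjusted p = 2.0e-05) and -2.00 ± 0.06 in tumor (limma, adjusted p = 1.5e-06). From marrow to tumor Plau rose 5.01-fold in wild-type and fell 2.66-fold in HDC-KO.

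The opposite signs of the genotype effect on Plau were themselves tested. The tumor effect minus the marrow effect was -3.73 ± 0.09 (log2, limma SE, adjusted p = 2.4e-06). The other Plau probe set, 1422138_at, lay nearer background, with pool means of 3.46, 5.19, 5.94 and 3.48 in wild-type marrow, HDC-KO marrow, wild-type tumor and the pool labelled HDC-KO. It showed the same signs, with genotype differences of 1.74 in marrow and -2.45 in tumor. With means raised to log2 5 these were 0.19 and -0.94, both short of 2-fold. In that fit, across 13505 probe sets, 3.72% passed between the marrow pools, 24.4% between the tumor pools, 15.9% and 36.3% from marrow to tumor in wild-type and HDC-KO, and 27.6% for the difference of effects. Of the genes tested, those whose pool means ran most like Plau were Fah, Plagl1 and Zfp692, at root-mean-square distances of 0.13, 0.22 and 0.36 log2 over the 4 centred pool means raised to log2 5. Unlike Plau, Fah and Plagl1 were at or under log2 5 in wild-type marrow and in the pool labelled HDC-KO.

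F10, which encodes the clotting protease factor X, was higher in tumor than in marrow. Its arrays read 6.63 and 6.68 in wild-type marrow, 6.44 and 6.31 in HDC-KO marrow, 7.80 and 7.68 in wild-type tumor, and 8.56 and 8.67 in the pool labelled HDC-KO. The 2 tumor pools were above both marrow pools on every array. The rise was 2.13-fold in wild-type mice and 4.73-fold from HDC-KO marrow to the tumor pool labelled HDC-KO. The genotype difference was -0.28 ± 0.07 in marrow and 0.87 ± 0.07 in tumor (log2, limma SE), each short of 2-fold, and their difference of 1.15 ± 0.11 passed (limma, adjusted p = 0.00018). Probe set 1418992_at of F10 gave 1.30 for that difference and passed, but its means in both marrow pools lay under log2 5. With means raised to log2 5 it gave 0.57, under the threshold. Probe set 1418993_s_at, which reached log2 5 only in the pool labelled HDC-KO, gave 0.52 and did not pass. Mvp, ND5 and Pdxk ran most like F10, at distances of 0.06, 0.09 and 0.10 log2.

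Plaur, the urokinase receptor gene, was the steadiest of the 8. Its arrays read 11.26 and 11.29 in wild-type marrow and 10.82 and 10.81 in HDC-KO marrow. They read 11.43 and 11.55 in wild-type tumor and 11.09 and 11.21 in the pool labelled HDC-KO. All 8 values fell within 1 log2 unit, and no comparison reached 2-fold. The widest difference was -0.46 ± 0.07 between the marrow pools (log2, limma SE, adjusted p = 0.0058), and the tumor pools differed by -0.34 ± 0.07. Where Plau, the gene of its ligand, rose in HDC-KO marrow, Plaur was 1.37-fold lower, short of the threshold. Phlda1, H2bc21 and Fam204a ran most like Plaur, at 0.04 to 0.05 log2.

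F3, the gene of tissue factor, the membrane receptor and cofactor that starts clotting, was at background in marrow and measured in tumor. Its marrow arrays read 4.55 and 4.72 in the wild-type pool and 4.12 and 4.33 in the HDC-KO pool, all under log2 5. Its tumor arrays read 8.32 and 8.11 in the wild-type pool and 8.41 and 8.34 in the pool labelled HDC-KO. F3 was at least 9.28-fold higher in tumor in wild-type mice (limma, adjusted p = 2.0e-06). In the HDC-KO comparison it was at least 10.4-fold higher in tumor (limma, adjusted p = 3.4e-07). The tumor pools differed by 0.16 ± 0.11 (log2, limma SE, adjusted p = 0.23). Traf1, Ms4a7 and Nr4a3 ran most like F3, at 0.09, 0.10 and 0.15 log2, each with both marrow pools at or under log2 5.

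Serpinb2, the gene of plasminogen activator inhibitor type 2, showed the largest fitted rise from wild-type marrow to tumor among the 8. Its marrow arrays read 3.08 and 2.90 in the wild-type pool and 4.10 and 3.45 in the HDC-KO pool, all at background. Its tumor arrays read 10.07 and 9.90 in the wild-type pool and 9.46 and 9.44 in the pool labelled HDC-KO. The gene was at least 31.6-fold higher in tumor in wild-type mice (limma, adjusted p = 1.6e-06). In the HDC-KO comparison it was at least 21.9-fold higher in tumor (limma, adjusted p = 1.1e-06). The tumor pools differed by -0.53 ± 0.20 (log2, limma SE, adjusted p = 0.054). The difference of the genotype effects passed at -1.32 ± 0.29, but it takes in marrow values at background and was -0.53 with values raised to log2 5, under the threshold. It was also -0.99, under the threshold, without HDC-KO marrow array 1. Without HDC-KO marrow array 2 the marrow difference of 0.79 became 1.11 and passed, with both pools still under log2 5. Ighg3, Ccl4 and Cd83 ran most like Serpinb2, at 0.18, 0.19 and 0.24 log2, each with both marrow pools at or under log2 5.

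The upstream sequences of F3, Serpinb2 and Plaur are shown because the pair at background in marrow and high in tumor can be set beside the steadiest gene. Each line is the 250 bases before the annotated start, 5′ to 3′ on the gene's plus strand, from RefSeq on GRCm38.p6, and capitals mark TGANTCA, the core of the AP-1 motif. AP-1 is the family of Fos and Jun factors that stress and cytokines switch on.
Serpinb2 (chr1:107511173-107511422): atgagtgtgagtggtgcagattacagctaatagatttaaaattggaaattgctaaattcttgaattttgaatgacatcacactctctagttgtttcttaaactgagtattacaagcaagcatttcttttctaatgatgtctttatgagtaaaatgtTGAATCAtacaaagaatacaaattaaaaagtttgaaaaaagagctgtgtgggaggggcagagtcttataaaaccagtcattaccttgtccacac
F3 (chr3:121723287-121723536): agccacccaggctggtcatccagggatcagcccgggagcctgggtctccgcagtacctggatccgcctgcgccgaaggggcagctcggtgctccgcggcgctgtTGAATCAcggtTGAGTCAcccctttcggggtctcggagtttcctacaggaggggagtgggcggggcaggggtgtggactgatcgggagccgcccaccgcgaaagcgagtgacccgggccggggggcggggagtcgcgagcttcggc
Plaur (chr7:24462233-24462482): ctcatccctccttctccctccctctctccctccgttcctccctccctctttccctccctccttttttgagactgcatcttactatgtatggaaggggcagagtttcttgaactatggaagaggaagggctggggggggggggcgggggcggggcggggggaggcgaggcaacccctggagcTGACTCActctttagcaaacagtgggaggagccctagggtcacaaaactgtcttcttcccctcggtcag
F3 held 2 matches, beginning 146 and 135 bases before the start. Serpinb2 held 1, at 94 bases before the start shown, and Plaur 1, at 69 bases before its start. Sequences were matched for 5 of the 8 genes, and the windows of F10 and F13a1 held no match to these letters. TGANTCA, which reads alike on both strands in these letters, was found in 6.75% of 32851 such windows of mouse genes. The Serpinb2 window also held TATAAA beginning 29 bases before the start, which 12.4% of windows held on either strand. The steady gene and the pair that rose thus shared the motif, which is a description of letters and not of binding.

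Thbs1, the thrombospondin 1 gene, was highest in wild-type marrow. Its arrays read 11.70 and 11.74 there and 10.16 and 10.03 in HDC-KO marrow. They read 10.94 and 10.88 in wild-type tumor and 10.68 and 10.67 in the pool labelled HDC-KO. No pools overlapped, and both tumor pools lay between the marrow pools. The marrow genotype difference was -1.63 ± 0.06 (log2, limma SE, adjusted p = 2.5e-05), against -0.24 ± 0.06 in tumor, and the difference of these effects was 1.39 ± 0.09 (limma, adjusted p = 4.1e-05).

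The second Thbs1 probe set, 1450377_at, gave a wider range. Its pool means were 8.44, 5.78, 6.33 and 5.89 in wild-type marrow, HDC-KO marrow, wild-type tumor and the pool labelled HDC-KO. By it Thbs1 fell 6.33-fold between the marrow pools and 4.31-fold from wild-type marrow to wild-type tumor. The brighter probe set gave 1.75-fold for the latter, short of the threshold, and the mean of both gave a log2 difference of -1.46, which passed. Both probe sets fell from wild-type marrow to tumor, but whether that fall passed rests on which is read, while the fall in HDC-KO marrow passed by both. Ift27, Gatm and Riok2 ran most like Thbs1, at 0.10, 0.18 and 0.22 log2.

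Platelets are a known source of thrombospondin 1, so their markers were set beside it. Of 11 platelet and megakaryocyte markers with a probe set, 9 were under log2 5 in both marrow pools, among them Pf4, Ppbp and Itga2b. Selp and Clec1b were above it in both, with Clec1b at 6.69 in wild-type marrow. The summed level of the list was 8.14 to 8.20 log2 in wild-type marrow and 7.78 to 7.97 in HDC-KO marrow. Of 4 tested, Selp, an adhesion receptor also of endothelium, fell 2.15-fold there, and Ppbp, a platelet chemokine, was called higher with both pools under log2 5. In tumor 7 of the 11 were under log2 5, and the summed level was 8.48 to 8.62 in the wild-type pool and 9.43 to 9.81 in the pool labelled HDC-KO. From marrow to tumor 2 of the 4 tested rose in wild-type and 1, Clec1b, fell, while in HDC-KO 2 rose. Pf4 was at least 3.99-fold higher in wild-type and at least 5.63-fold in HDC-KO, with marrow under log2 5. Between the tumor pools Ppbp was 6.48-fold and Clec1b 2.79-fold higher in the pool labelled HDC-KO, where 15.5% of all genes passed upward. The part of these markers in the level of Thbs1 was not tested.

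F13a1, the gene of the catalytic chain of factor XIII, was measured well above background in all 4 pools. Its arrays read 10.68 and 10.68 in wild-type marrow, 11.26 and 11.26 in HDC-KO marrow, 12.24 and 12.28 in wild-type tumor, and 12.43 and 12.47 in the pool labelled HDC-KO. Each pool lay apart from the next. F13a1 rose 2.98-fold from marrow to tumor in wild-type (limma, adjusted p = 1.9e-06) and 2.28-fold in HDC-KO (limma, adjusted p = 1.8e-06). The genotype differences were 0.58 ± 0.05 in marrow and 0.19 ± 0.05 in tumor (log2, limma SE), both short of 2-fold. Hsph1, Lrpap1 and Rnf149 ran most like it, at 0.10 to 0.13 log2, with Hsph1 at or under log2 5 in wild-type marrow.

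Tgm2, the gene of tissue transglutaminase, changed most of the 8 genes between the marrow pools. Its arrays read 10.09 and 10.17 in wild-type marrow and 6.49 and 6.38 in HDC-KO marrow. They read 12.90 and 12.94 in wild-type tumor and 12.95 and 12.90 in the pool labelled HDC-KO, where the tumor pools overlapped. The marrow genotype difference was -3.69 ± 0.06 (log2, limma SE, adjusted p = 1.5e-06), and the tumor difference was 0.00 ± 0.06 (limma, adjusted p = 0.97). From marrow to tumor Tgm2 rose 6.92-fold in wild-type and 89.6-fold in HDC-KO. The difference of the genotype effects was 3.69 ± 0.09 (limma, adjusted p = 2.4e-06).

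Tgm2 has 6 probe sets, and those that reached log2 5 in wild-type marrow agreed in direction. Probe sets 1433428_x_at and 1437277_x_at showed it 18.4-fold and 22.0-fold lower in HDC-KO marrow, and 1417500_a_at at least 8.17-fold lower. Probe set 1426004_a_at read 3.80 and 3.66 in the marrow pools, both under log2 5, and rose in tumor to 6.25 and 6.13. The last, 1438942_x_at, stayed under 3 on all 8 arrays and was not tested. Identifiers ending in _x_at mark probes that may also bind other transcripts; with these and _s_at sets left out, 1417500_a_at stood for Tgm2 and the gene was still called.

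**Figure D3:**
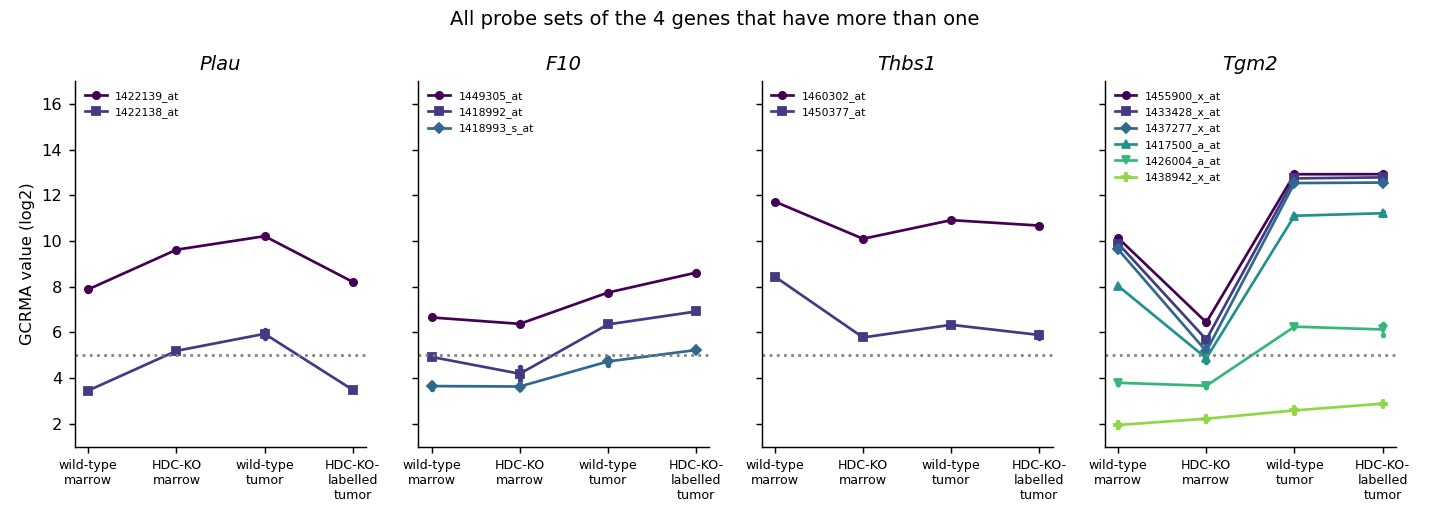
Log2 GCRMA value (vertical axis) of every probe set of Plau, F10, Thbs1 and Tgm2 in the 4 pools, with pool means joined by lines, the 2 technical arrays as dots and log2 5 dotted. The 4 brightest Tgm2 probe sets dip together in HDC-KO marrow, and both Plau probe sets peak in wild-type tumor.

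The genes that ran most like Tgm2 over the 4 pools were Acod1, Jchain and Igkv8-30, at 0.27, 0.61 and 0.63 log2. Acod1, which encodes the itaconate-making enzyme of activated macrophages, had pool means of 10.10 and 6.94 in wild-type and HDC-KO marrow and 13.62 and 13.46 in wild-type tumor and the pool labelled HDC-KO. Jchain and Igkv8-30 belong to antibodies. Of 5 tested B and plasma cell markers 3 fell and 1 rose in HDC-KO marrow, with Igha and Jchain among those that fell. Their summed level was 12.11 to 12.15 log2 in wild-type marrow, 10.11 to 10.13 in HDC-KO marrow, 14.73 to 14.76 in wild-type tumor and 15.39 to 15.40 in the pool labelled HDC-KO. Cd79a and Pax5 were under log2 5 in all 4 pools. Their part in the result was not tested.

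Other cell markers moved between the marrow pools beside Plau, Thbs1 and Tgm2. Of 8 tested basophil, mast cell and eosinophil markers 5 fell, and the summed level went from 10.84 to 10.98 log2 in wild-type marrow to 9.71 to 9.72 in HDC-KO marrow, where Fcer1a, Ms4a2 and Cpa3 were among 6 of 10 under log2 5. Of 14 monocyte and macrophage markers 4 rose, Klf4 2.90-fold and C1qb 2.19-fold among them, and 1, Adgre1, fell 3.30-fold. Their summed level was 11.67 to 11.68 in wild-type marrow and 12.20 in HDC-KO marrow, and Mertk, Cx3cr1 and C1qa were under log2 5 in both pools. Mertk was still counted among the 4 that rose, at a fitted log2 difference of 1.08. None of the 10 neutrophil markers passed in limma, 3 had an unadjusted p under 0.05, and the summed level was 17.63 and 17.64 to 17.66. For T and NK cells, 2 of 6 tested markers were higher and 1 lower past the threshold, and Cd3d, a T cell receptor chain, alone had a mean of 7.63 in wild-type marrow and 12.48 in HDC-KO marrow. It carried the summed level of that list from 9.58 to 10.04 to 12.55 to 12.58, while Nkg7 fell 2.08-fold and 5 of 7 markers, Cd3e and Cd3g among them, were under log2 5 in both pools. Of 3 tested erythroid markers 1, Slc4a1, fell, and the list went to a summed level of 5.58 to 5.67 from 6.43 to 6.52. That list lay near background, with 5 of 6 markers under log2 5 in wild-type marrow and 6 in HDC-KO marrow. The fall of Slc4a1, from 5.48 to 3.68, was at least 1.40-fold. The part of these markers in the differences of the 3 genes was not tested.

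Macrophage and epithelial markers rose from marrow to tumor beside the 6 genes that rose in wild-type and the 5 in HDC-KO. All 14 tested monocyte and macrophage markers rose in the wild-type and in the HDC-KO comparison. Their summed level was 14.53 to 14.57 log2 in wild-type tumor and 15.64 to 15.68 in the pool labelled HDC-KO, with none under log2 5. All 15 tested intestinal epithelial markers rose in both comparisons. Their summed level was 7.85 to 8.12 in wild-type marrow, 7.97 to 8.08 in HDC-KO marrow, 12.64 to 12.65 in wild-type tumor and 15.11 to 15.21 in the pool labelled HDC-KO, and 15 of 16 were under log2 5 in each marrow pool. Markers under log2 5 in marrow were tested only through their tumor arrays, so for nearly all of the epithelial list, and for some of the macrophage list, a rise was built into being tested. The erythroid sum was 11.14 to 11.24 in wild-type tumor and 13.27 to 13.30 in the pool labelled HDC-KO, almost wholly from Car1 at 11.08 and 13.17, a gene also known from colon epithelium, with Hba-a1, Klf1 and Epor under log2 5 in both. The part of these lists in the rise of the group was not tested.

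Between the tumor pools several marker lists moved beside Plau. In the pool labelled HDC-KO 14 of 15 tested epithelial markers and 11 of 14 monocyte and macrophage markers rose, with median log2 differences of 2.63 and 1.37. Of 6 tested T and NK cell markers 4 rose, Gzma 11.3-fold among them, and 1, Cd3d, fell 3.38-fold, and their summed level was 12.10 to 12.17 in wild-type tumor and 11.73 to 11.75 in the other. All 7 tested primary granule genes, markers of granulocyte precursors, fell in the pool labelled HDC-KO, from a summed level of 12.87 to 12.89 log2 to one of 9.71 to 9.82, with Elane and Ctsg under log2 5. In the marrow pools, where Plau was higher in HDC-KO, the sum was 14.91 to 14.95 in wild-type and 14.62 to 14.63 in HDC-KO. None of the 7 passed between the marrow pools in limma, and 4 had an unadjusted p under 0.05. The part of these lists in the differences of Plau was not tested.

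Among the wider set of plasminogen activation genes, 15 of 19 listed had a probe set and 10 were tested. In each of the 5 lists, genes at background in marrow were tested only through their tumor arrays, so counts of rises hold some that were built in. Beside these counts, 11.6% of all genes tested passed upward and 4.81% downward from marrow to tumor in wild-type, and 21.1% and 15.4% in HDC-KO. The upward and downward shares were 15.5% and 10.5% between the tumor pools, and 1.80% and 2.02% between the marrow pools. From marrow to tumor 6 rose in wild-type, of which Plat and Serpinb8 lay under log2 5 in both pools, and in HDC-KO 7 rose and 1, Plau, fell. Plat and Serpinb8 were among these 7 but reached only 5.44 and 5.19 in tumor, at least 1.36-fold and 1.14-fold higher. Lrp1, an endocytic receptor that clears protease and inhibitor complexes, was at least 8.59-fold higher in wild-type tumor and at least 30.2-fold in HDC-KO. S100a10, a plasminogen-binding surface protein, was 4.14-fold higher in tumor than in marrow in wild-type and 4.45-fold in HDC-KO. Between the tumor pools Lrp1 was 3.52-fold and Plgrkt, a plasminogen receptor, 2.34-fold higher in the pool labelled HDC-KO, against the 4.00-fold lower Plau. Between the marrow pools Plau alone of the 10 passed. Plg, which encodes plasminogen itself, was under log2 5 in all 4 pools at 2.19 to 2.47.

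Of 23 genes listed as coagulation factors and cofactors 9 were tested and the others stayed at background in all pools. Among the latter F2, F7, F9, Fga, Fgb and Fgg had pool means of 1.53 to 3.44. In wild-type mice F3, F13a1 and F10 were the 3 that rose from marrow to tumor. In HDC-KO the same 3 rose with Vkorc1 and Mcfd2, while F5 and Hgf fell. Hgf encodes hepatocyte growth factor, which was on the list but is not a clotting factor. Vkorc1, whose enzyme recycles vitamin K for clotting factors, rose 2.77-fold. Between the tumor pools Vkorc1 was the 1 gene of 9 that passed upward, with means of 6.07 in wild-type and 7.22 in the pool labelled HDC-KO. F5, which encodes the cofactor of factor X, had means of 11.84 and 11.42 in wild-type and HDC-KO marrow and 11.67 and 10.41 in wild-type tumor and the pool labelled HDC-KO, 2.40-fold lower between the tumor pools. None of the 9 passed between the marrow pools in limma, and 6 had an unadjusted p under 0.05.

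Genes that restrain clotting or sense its proteases were mostly at background in marrow, and 4 of 14 with a probe set were tested. Thbd, which encodes thrombomodulin, a receptor that turns thrombin into an anticoagulant, fell 2.09-fold in HDC-KO marrow and rose 6.18-fold from there to tumor. Pros1, an anticoagulant cofactor, was at least 1.41-fold higher in wild-type tumor and at least 6.49-fold in HDC-KO, and 4.60-fold higher between the tumor pools. F2r, a thrombin receptor, was at least 4.74-fold higher in the pool labelled HDC-KO than in wild-type tumor. All 4 rose from marrow to tumor in HDC-KO and 3 in wild-type, where F2r and Gas6 lay under log2 5 in both pools. Pros1, F2r and Gas6 were under log2 5 on all marrow arrays and were tested only through tumor arrays, so their rise was built in. Tfpi, the inhibitor of the tissue factor complex, was not above 4.19 in a pool mean.

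Of 14 thrombospondins and receptors 10 were tested, and Thbs1 was the 1 thrombospondin among them. Thbs2, Thbs3, Thbs4 and Comp had pool means of 2.35 to 3.45. From marrow to tumor Sdc4, a surface proteoglycan, was at least 12.7-fold higher in wild-type and at least 20.5-fold in HDC-KO, while Itgb3, an integrin chain of platelets and macrophages, was at least 11.7-fold and 9.96-fold lower. In all 4 rose and 1 fell in wild-type, Itga5 with both pools under log2 5, and 5 rose and 1 fell in HDC-KO. Between the tumor pools 4 rose and 1 fell, Itgb3 with both pools under log2 5, and Itga5, a fibronectin receptor chain, was at least 2.65-fold and Tgfb1, a growth factor gene, 2.08-fold higher. Between the marrow pools Thbs1 alone passed.

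Of 12 transglutaminase and fibronectin genes 5 were tested, and 4 rose from marrow to tumor in wild-type and all 5 in HDC-KO. Besides Tgm2 and F13a1, Tgm1, an enzyme known from skin, was at least 8.35-fold higher in wild-type tumor and 5.78-fold in HDC-KO. Fn1, which encodes fibronectin, a substrate of both transglutaminases, rose 7.50-fold and 10.4-fold. Between the marrow pools Tgm2 alone of the 5 passed, while Tgm1 was near log2 5 in both. Between the tumor pools Itgb1, an integrin chain, rose 2.47-fold and Fn1 2.13-fold in the pool labelled HDC-KO, where Tgm2 and F13a1 did not pass. The median fitted differences of the lists in wild-type tumor against marrow were 1.80, 0.29, 1.50, 0.48 and 2.79 in the order given here, and 0.15, 0.29, 0.25, 0.13 and 2.79 with pool means raised to log2 5, beside a fitted median of -0.03 over all genes. The fitted medians of the plasminogen, anticoagulant and thrombospondin lists thus rest on values under log2 5, and each list but that of anticoagulants holds genes of the group.

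**Figure D4:**
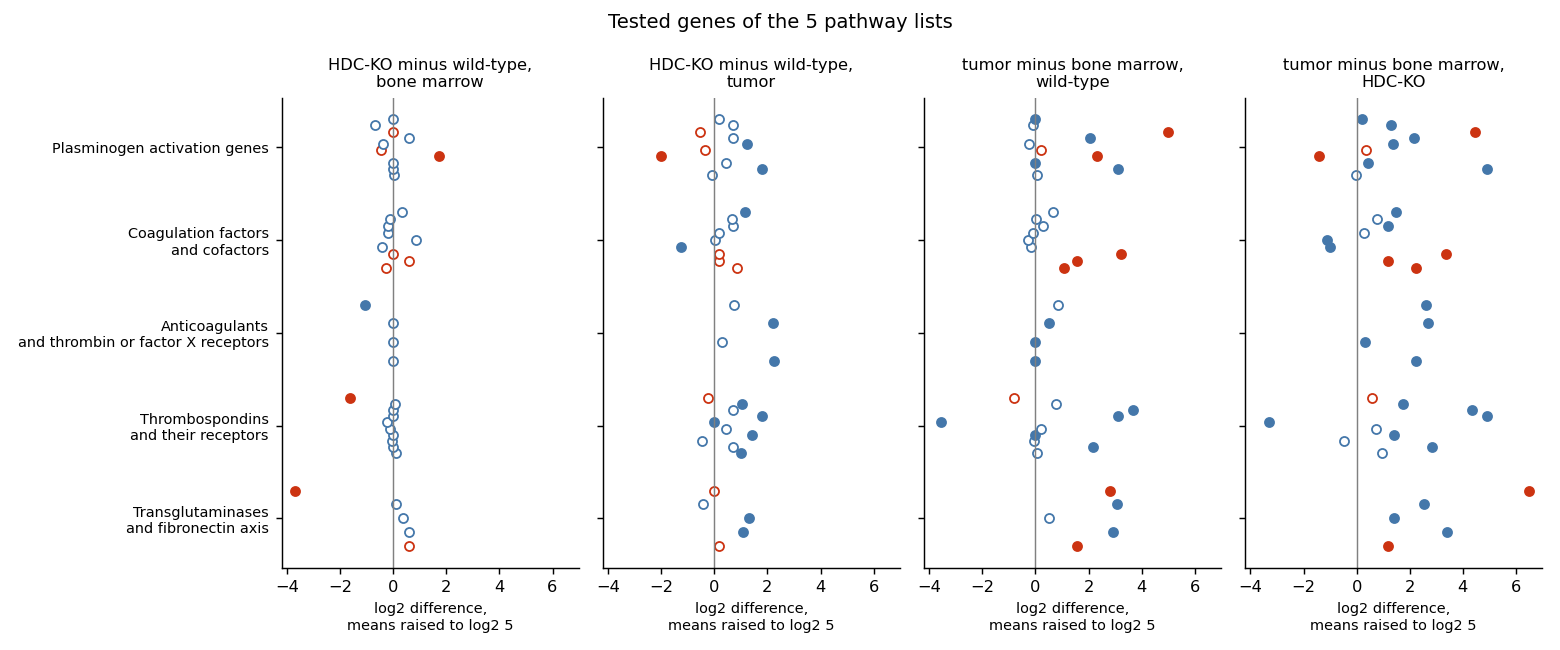
Log2 difference with pool means raised to log2 5 (horizontal axis) of each tested gene in the 5 pathway lists and 4 comparisons, with the 8 genes of the group in red, other genes in blue, and filled points for genes that passed. Few points are filled between the marrow pools, and filled points at 0 are genes that passed with both pools under log2 5.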

How the data were processed

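The deposited values are log2 expression values of 45101 probe sets on 8 arrays, which the authors made with GCRMA (background correction, normalization between arrays and summary of probes), per the submitters' processing notes. Their range fits a log2 scale. The GCRMA version was not stated. The platform's annotation table gave 1 gene for 34958 probe sets, several for 932 and none for 9211. No symbol changed on matching identifiers to RefSeq genes of GRCm38.p6, where 204 were not matched. 

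The brightest probe set on average stood for each of 18194 genes. Testing covered 8174 genes that reached log2 5 on 2 or more arrays, by limma 3.58.1 (lmFit and eBayes, R 4.3.3) on all 8 arrays, and the spread had 4 residual and 2.14 prior degrees of freedom. Thresholds were a Benjamini-Hochberg adjusted p of 0.05 and 2-fold. The other probe sets were tested in a fit over 13505 probe sets. Array precision is limited by the number of arrays. The fit was tested on simulated data. Figures and promoter searches used Python 3.11.15, pandas 2.3.3 and matplotlib 3.10.9.

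The genes named were the 8 members, Hdc, up to 3 called genes per list and comparison with the largest difference after means were raised to log2 5, and the 3 tested genes of most similar pool means per member. Mcfd2, Hgf, Plat, Serpinb8, genes given only as at background and markers named as under log2 5 were picked with their values known. The members and the 5 pathway and 10 marker lists were chosen with earlier results of these data known. Alternatives were no filter, values raised to log2 5, median centring, quantile normalization, probe sets averaged, no _x_at or _s_at sets, only the groups compared, a trended robust variance, a replicate block, averaged arrays, and each array left out.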

Additional observations from a re-analysis of the deposited data

Results flagged for a closer look

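The genotype effect differed between tumor and marrow, by limma's test of the difference itself, for 5 of the 8 genes, where 28.5% of all genes passed. For Plau the tumor effect minus the marrow effect was -3.73 on the log2 scale, with effects of opposite sign that both passed. For Tgm2 it was 3.69, with an effect of -3.69 in marrow and 0.00 in tumor. For Thbs1 it was 1.39, with effects of -1.63 and -0.24. For F10 it was 1.15, with effects of -0.28 and 0.87 that were each short of 2-fold. For Serpinb2 it was -1.32, with both marrow pools under log2 5. Each of these differences takes in the tumor pool labelled HDC-KO, whose level of Hdc did not bear out its label.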

How the results depend on the processing

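Of 712 values of the 8 genes under an alternative, 703 kept their direction and their side of the threshold. The tumor difference of Tgm2, 0.00 and not called under any setting, was -0.054 after quantile normalization and -0.058 after median centring, and -0.024 to 0.029 with 1 array left out, negative (-0.017 and -0.024) without array 1 of either tumor pool. The others were the values of Serpinb2 and Thbs1 given above, and F10, whose difference of effects was 0.99, under the threshold, as the mean of its probe sets. The count of the 8 genes that passed changed in 5 cases. The difference of effects passed for 4 in place of 5 with values raised to log2 5, with probe sets averaged and without HDC-KO marrow array 1. The wild-type change from marrow to tumor passed for 7 in place of 6 with probe sets averaged, the addition being the fall of Thbs1, and the marrow comparison for 4 in place of 3 without HDC-KO marrow array 2. Every count over all genes stayed within 1.5 times. Fitting only the groups compared could not be run for the difference of effects.

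Same-numbered arrays of different pools were not paired: their deviations correlated at -0.01 to 0.06 over 6 pairs of pools. With the replicate number as a block, 312 genes passed between the marrow pools and 2122 between the tumor pools, as without it, and the counts of the 8 genes were the same. With 2 technical arrays per pool, the tests cover technical spread only, and values under log2 5 carry no order. Which tumor mice gave the pool labelled HDC-KO could not be checked beyond Hdc.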
